A study of Venturia canescens with 18 samples.

Results

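A group of 9 loci is described here, chosen from 16752 in the count table for a level at least 1.1-fold higher in every pool of brother-courted female heads than in any other pool, a mean in the unrelated-courted pools close to that in the isolated ones, and a minimum level in the isolated pools. The species is the parasitoid wasp Venturia canescens. Virgin females that had just emerged, descended from wasps caught in the field and kept on caterpillars of the flour moth Ephestia kuehniella, were boxed for up to 10 min with a brother (brother group), with an unrelated male (unrelated group) or without a male (isolated group). RNA was taken from pooled heads. Each group held 3 pools, and each pool was sequenced as 2 technical replicates, which were summed to pools of 62341897 to 103527471 counts.

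In wasps and bees, sex is commonly set by whether an egg carries different alleles at a sex-determining locus. In species where a single locus acts in this way, as in Venturia canescens, mating with a brother can give diploid males that father few or no daughters, and females of this species are known to accept brothers less readily than unrelated males. The head holds the antennae, which carry the receptors for odours, and the brain regions that process them, so a comparison of courtship by the 2 kinds of male asks what the female's head does differently when the suitor is kin. In insect brains the RNA of some genes, the immediate early genes, is known to be induced within minutes of a stimulus.

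The members were chosen by their measured levels in all 9 pools. Levels are given as CPM, the count of a locus divided by the total of its pool and scaled to a common library size. A member had to average at least 5 CPM in the isolated pools, and its unrelated mean had to lie between 0.9 and 1.1 times its isolated mean. Each of its 3 brother pools had to reach at least 1.1 times the highest of the 6 other pools, with brother pool 1 below 4 times that value. The height of the brother pools and the nearness of the other groups to each other are therefore how the loci were found, and are given as a description. The identifiers are those of the authors' transcript assembly and none of the 16752 could be found among the genes that RefSeq lists for this wasp, so no gene name, role or position can be attached to them. For the same reason the head could not be checked against marker genes.

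One library pool stood apart. Of 8268 loci that averaged at least 5 CPM in isolated pools, 149 were over 2-fold higher in brother pool 1 than in any other pool, against 0 to 5 in each of the others, and results are therefore also given without it.

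Few loci came near the rule. Of the 16752 loci, 8268 averaged at least 5 CPM in isolated pools, and 4828 of these had an unrelated mean within the window. In 67 of the 4828 every brother pool lay above every other pool, and in 9 it did so by at least 1.1-fold. The limit on brother pool 1 removed none. Among the members the lowest brother pool lay between 1.1002 and 1.28 times the highest other pool. The 2 members nearest the limit, XLOC_009006 and XLOC_016686, stood at 1.1002 and 1.103, and the 3 loci just outside it, XLOC_006583, XLOC_001504 and XLOC_002999, at 1.0986, 1.094 and 1.093, so the edge of the group falls within a continuous range. A further 9 loci passed the minimum level and the 1.1-fold limit but lay outside the window on the unrelated mean. For these the upper limit on brother pool 1 was not applied. In 7 of them the unrelated mean was 1.12 to 1.56 times the isolated mean, and in XLOC_003050 and XLOC_012455 it was 0.769 and 0.878 times.

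**Figure D1:**
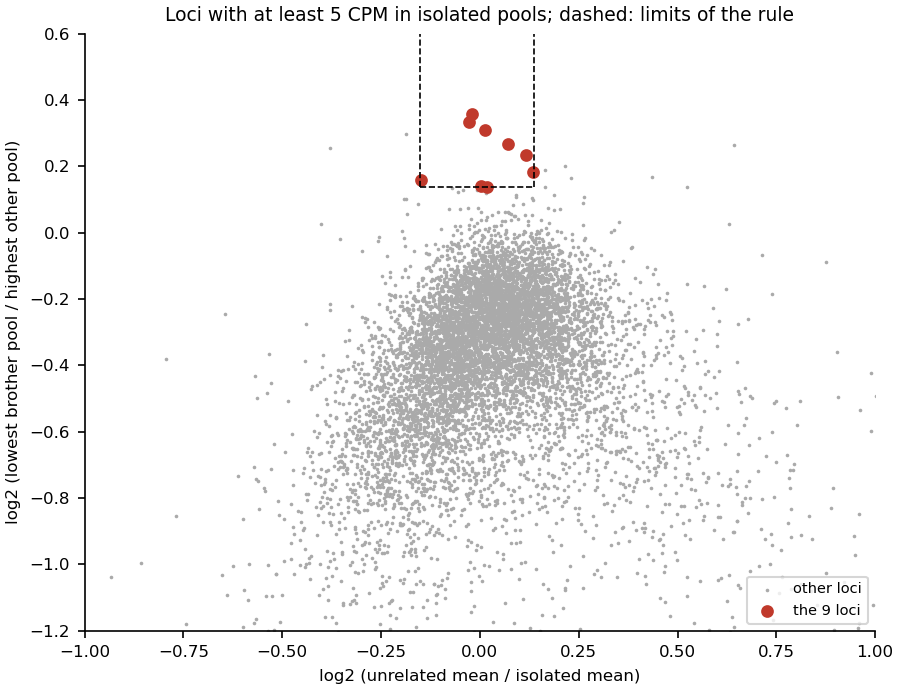
Each point is a locus with at least 5 CPM in the isolated pools. The x axis is the log2 ratio of the unrelated to the isolated mean and the y axis the log2 ratio of the lowest brother pool to the highest of the 6 other pools, with the limits of the rule dashed. The 9 loci (red) sit at the upper edge of one continuous cloud. Of 8266 loci with both ratios above 0, 201 fall outside the axes.

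The same limits turned round found other numbers of loci. With the unrelated and brother pools exchanged, and no upper limit, 4 loci met the rule. With the direction reversed, so that every brother pool lay at or below the lowest other pool divided by 1.1, 52 did. These are counts of loci in the same 9 pools and were not tested against each other. They use pool totals, on which the median locus stood at 103%, 93.7% and 95.8% of its isolated mean in brother pools 1 to 3. The median coefficient of variation within a group was 11.7% for brother, 6.02% for isolated and 4.94% for unrelated pools. The limits were therefore not equally strict in each direction or for each group.

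XLOC_002420 had the widest gap on pool totals. Its isolated pools 1 to 3 measured 153, 175 and 133 CPM and its unrelated pools 149.6, 135 and 169.6 CPM. In the brother pools it was 224, 233 and 283 CPM. The isolated and unrelated pools ran over the same range, and the lowest brother pool stood at 1.28 times the highest of them, isolated pool 2. Its brother mean of 247 ± 31.96 CPM (SD, n = 3) was 1.61 times the isolated mean of 153 ± 21.1 and 1.63 times the unrelated mean of 151 ± 17.4 CPM. Brother pool 3 was the highest by a wide step. RNA came from whole pooled heads, in which more cells of a kind that express a locus and more RNA per cell cannot be told apart.

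XLOC_011522 had the next widest gap on pool totals. It measured 36.1, 35.3 and 32.4 CPM in the isolated pools and 36.2, 32.7 and 32.9 CPM in the unrelated pools. The brother pools stood at 52.4, 48.5 and 45.6 CPM, here with brother pool 1 the highest and pool 3 the lowest. The group means were 34.6 ± 1.97, 33.9 ± 1.95 and 48.8 ± 3.40 CPM (SD, n = 3 each) for isolated, unrelated and brother.

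XLOC_001600 was highest in brother pool 1 as well. It stood at 27.5, 29.2 and 23.6 CPM in isolated pools and at 27.8, 26.7 and 29.8 CPM in unrelated pools. In brother pools 1 to 3 it reached 43.2, 35.9 and 36.6 CPM. On pool totals brother pool 1 was well above the other brother pools, which lay at 1.204 and 1.23 times the highest unrelated pool. XLOC_001339 had isolated pools at 19.9, 18.2 and 17.8 CPM, unrelated pools at 19.9, 17.9 and 18.6 CPM, and brother pools at 25.3, 24.7 and 27.1 CPM. Its isolated and unrelated means of 18.6 ± 1.14 and 18.8 ± 1.06 CPM nearly coincided, and its brother mean was 25.7 ± 1.21 CPM (SD, n = 3 each).

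A pair of members had nearly identical brother pools on pool totals, though not on library sizes scaled by TMM, a trimmed mean of log ratios. XLOC_009214 stood at 35.5, 34.9 and 35.3 CPM in brother pools 1 to 3, a coefficient of variation of 0.923%, and at 33.2, 37.4 and 37.1 CPM on TMM-scaled sizes. Its isolated pools were uneven, at 23.6, 29.6 and 23.9 CPM, and its unrelated pools were at 29.3, 25.3 and 29.0 CPM. Isolated pool 2 thus sat with unrelated pools 1 and 3, closer to the brother level than the rest. XLOC_010008 had 8.13, 8.28 and 8.36 CPM in the brother pools (7.60, 8.89 and 8.76 CPM on TMM-scaled sizes), 5.66, 6.13 and 6.04 CPM in the isolated pools and 7.16, 5.68 and 6.72 CPM in the unrelated pools. Unrelated pools 1 and 3 lay above all isolated pools, and its unrelated mean was 1.097 times the isolated mean, just inside the window. For XLOC_009214 that ratio was 1.08.

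XLOC_005509 was set apart by a single pool. Brother pool 3 stood at 99.95 CPM, while brother pools 1 and 2 stood at 70.2 and 67.1 CPM. Its isolated pools were close together at 58.8, 60.0 and 57.9 CPM, and its unrelated pools lay below all of them at 54.7, 51.0 and 53.7 CPM. It was the one member of 9 whose unrelated and isolated pools did not overlap, with an unrelated mean of 0.902 times the isolated mean, at the other edge of the window. The share of all loci without such overlap was not counted, so this is a description only.

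The remaining members had 1 or 2 brother pools close to the other groups. XLOC_016686 measured 16.4, 19.5 and 16.8 CPM in brother pools 1 to 3, against 14.5, 14.2 and 14.8 CPM in isolated and 14.5, 14.9 and 14.2 CPM in unrelated pools. The 6 pools without a brother varied little, with coefficients of variation of 2.20% and 2.40% within their groups, and the brother mean of 17.6 ± 1.69 CPM (SD, n = 3) was the smallest step of any member, at 1.21 times the isolated mean. Brother pools 1 and 3 stood at 1.103 and 1.128 times the highest other pool, and brother pool 2 at 1.31 times. XLOC_009006 stood at 35.3, 40.6 and 43.5 CPM in the brother pools, 32.1, 28.9 and 28.5 CPM in the isolated pools and 27.2, 31.8 and 31.6 CPM in the unrelated pools. Brother pool 1 was thus only a little above isolated pool 1, and pools 2 and 3 stood clear of it.

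**Figure D2:**
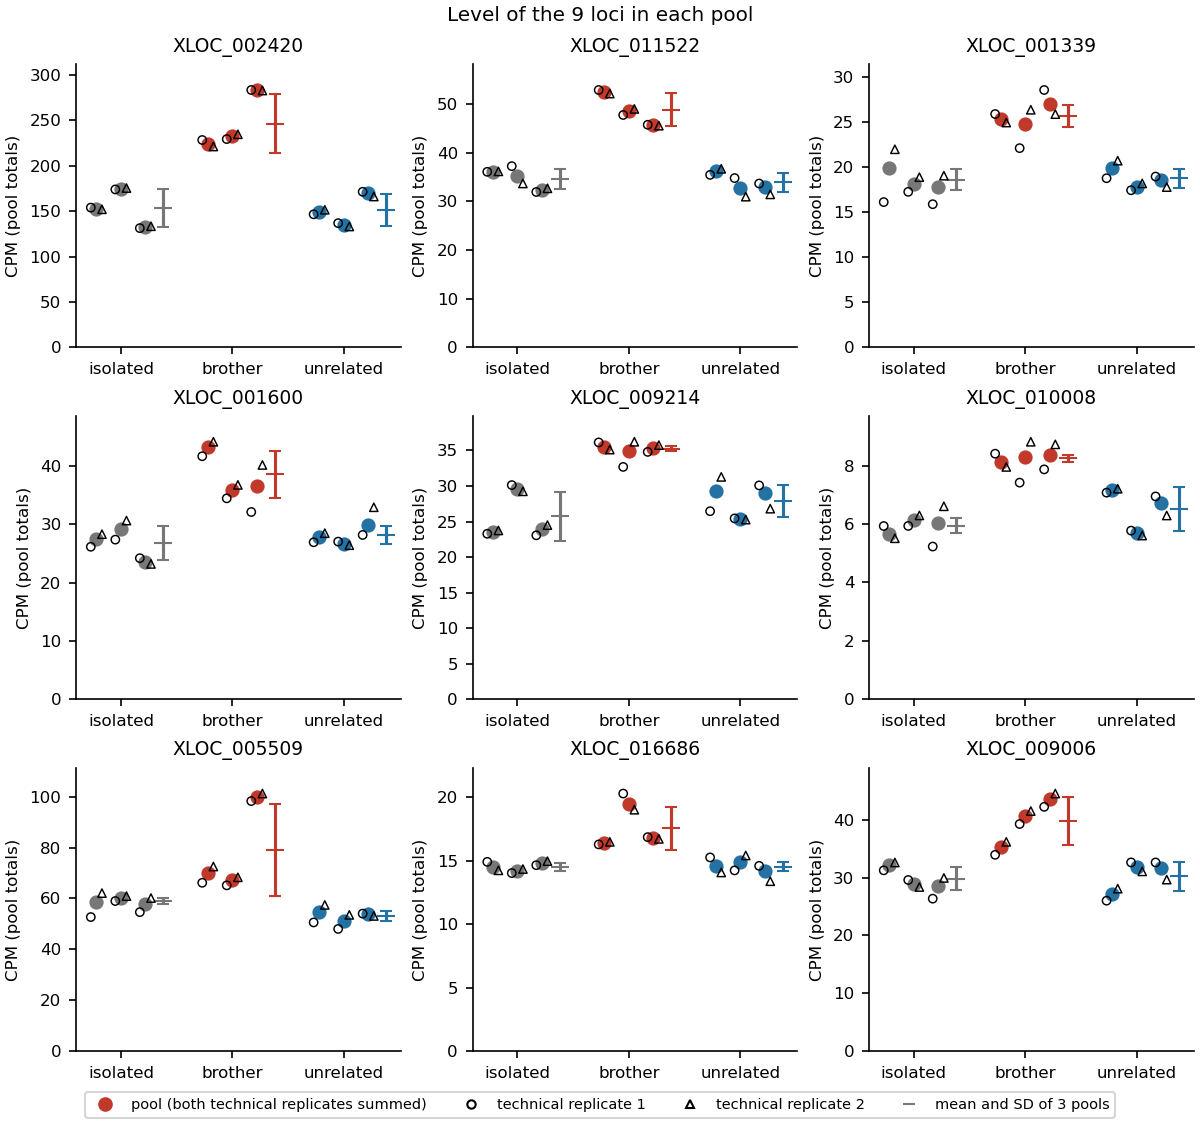
Level in CPM (y axis, from 0) of each of the 9 loci in the 3 isolated, 3 brother and 3 unrelated pools. Filled points are pools, open circles and triangles the first and second technical replicate of each, and the bars the mean and SD of 3 pools. In all 9 panels the 3 brother pools lie above the 6 others; in XLOC_005509 brother pool 3 reaches 99.95 CPM while brother pools 1 and 2 stay at 70.2 and 67.1 CPM.

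On pool totals the brother pools did not take a fixed order across members. Brother pool 3 was the highest of the 3 in 5 members, brother pool 1 in 3 and brother pool 2 in 1. Brother pools 1 and 2 were each the lowest in 4 members, and pool 3 in 1. The order rested on the scaling: on TMM-scaled sizes brother pool 1 was the lowest in 7 members, pool 2 in 0 and pool 3 in 2. The highest of the 6 other pools was an unrelated pool in 5 members and an isolated pool in 4. The identifiers ran from number 1339 to number 16686. No pair had consecutive numbers, and the closest pair was 208 apart.

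Counting error was small beside these gaps, except in members with few counts or a narrow gap. A member's count in a pool was between 353 and 19412, for a counting error of 5.32% to 0.718%. Exact 95% intervals for the ratio of the lowest brother pool to the highest other pool, from counting error only, ran from 1.253 to 1.31 for XLOC_002420 and from 1.195 to 1.33 for XLOC_011522. They reached down to 1.005 for XLOC_010008, 1.02 for XLOC_016686 and 1.04 for XLOC_009006. The rule had required this same ratio to be at least 1.1, so intervals above 1 are not read as support.

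The technical replicates, which share their RNA, were a repeat of the sequencing but not of the animals. In each set taken alone, all 9 members had all 3 brother libraries above all 6 others. Over the 15486 loci that passed a filter on low counts this was the case for 1.1% in the first set, 1.29% in the second and 1.29% with the sets summed. The members were chosen on the sum of both sets, so these repeats are not independent of the choice. The margin of 1.1-fold was kept by 5 members in the first set and 7 in the second, and the whole rule was met by 4 and 7. A member's level in a pool differed between the sets by a median of 5.69%. The widest difference was in XLOC_001339, where isolated pool 1 stood at 16.1 CPM in the first set and 21.98 CPM in the second, 36.3% higher. These levels rest on 356 and 885 counts. The counting error of either set is therefore larger than the 2.84% of the summed pool. For XLOC_001339 the log2 fold change of brother over isolated, fitted to each set alone, was 0.65 (edgeR adjusted p = 0.0336) in the first set and 0.39 (edgeR adjusted p = 0.110) in the second.

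The fit of all 9 pools, with p-values adjusted over 15486 loci, was then read for the members. Against the isolated pools, 5 of 9 members passed the test (edgeR quasi-likelihood, adjusted p under 0.05), where 0.53% of all loci tested were called higher. The rule used this contrast, so nothing is read from the difference. The 5 were XLOC_011522 (log2 fold change 0.52 ± 0.078, SE; edgeR adjusted p = 0.0249), XLOC_001600 (0.55 ± 0.086; adjusted p = 0.0263), XLOC_002420 (0.72 ± 0.14; adjusted p = 0.0435), XLOC_001339 (0.49 ± 0.099; adjusted p = 0.0446) and XLOC_009214 (0.48 ± 0.10; adjusted p = 0.0495). The other 4 had log2 differences of 0.31 to 0.50 and edgeR adjusted p from 0.0795 to 0.165. The members' median was 0.49 and that of all loci 0.03. In rank of p among the 15486 loci the members lay between 55 and 2328.

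Against the unrelated pools, which also met a male, 1 of 9 members passed, where 0.00646% of loci, that same 1 locus, were called higher. This was XLOC_011522, with a log2 fold change of 0.57 ± 0.078 (SE) and an edgeR adjusted p of 0.0304. XLOC_001600 was next with a difference of 0.50 ± 0.086 and an edgeR adjusted p of 0.0826, and the other 7 had differences of 0.33 to 0.76 and adjusted p from 0.119 to 0.623. The median over members was 0.50, and 0.03 over all loci. Between unrelated and isolated pools 0 of 9 members passed (edgeR), with 0 at an unadjusted p under 0.05, where 0% of all loci were called (1678 of 15486 had an unadjusted p under 0.05). DESeq2 also called 0 members there, where it called 4.9% of the 8869 loci to which it gave an adjusted p. The members' log2 differences were between -0.18 and 0.11 on this contrast, a range the rule set.

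**Figure D3:**
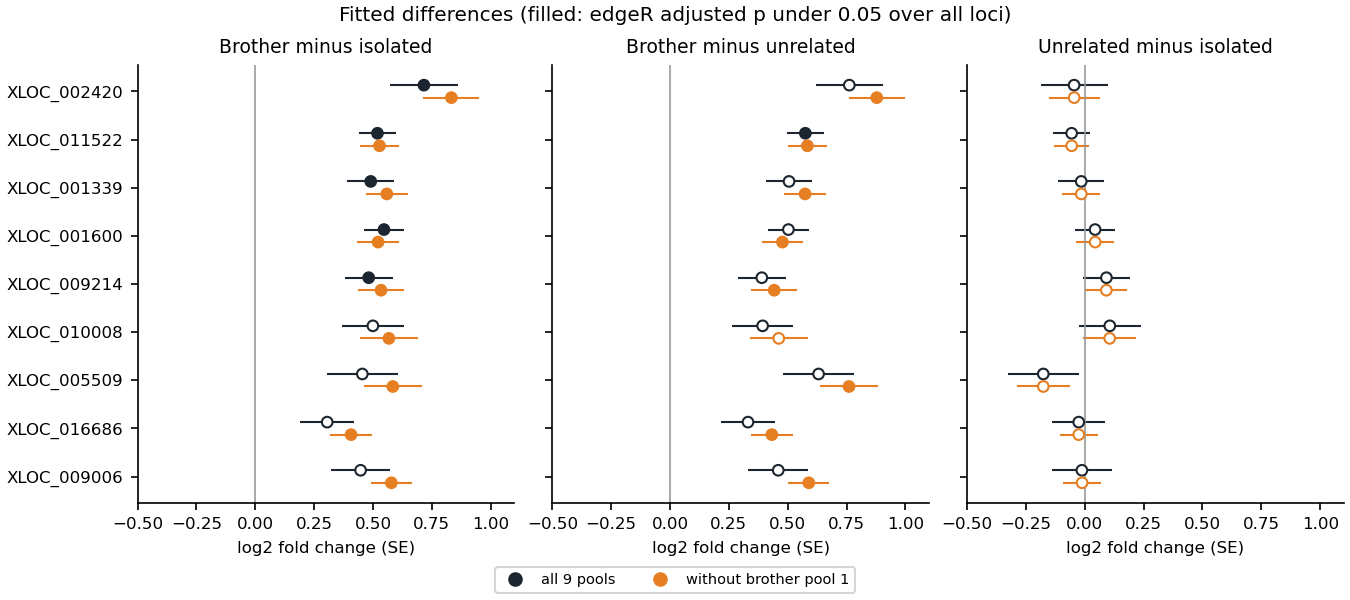
Fitted log2 fold change (x axis, bars are SE) of each of the 9 loci in the 3 comparisons, with all 9 pools (black) and without brother pool 1 (orange). Filled points have an edgeR adjusted p under 0.05 over all loci. With all pools 5 loci are filled against isolated and 1 against unrelated; without brother pool 1 these numbers are 9 and 8, and none is filled between unrelated and isolated.

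Calls rested on which pools entered the fit. Without brother pool 1, all 9 members passed against isolated, where 7.26% of all loci were called higher, and 8 of 9 passed against unrelated, where 2.49% were. The member that did not pass was XLOC_010008 (edgeR adjusted p = 0.0601). Members' log2 fold changes against isolated were then 0.41 to 0.83. Between unrelated and isolated pools this fit called 0 members and 5.2% of all loci. Without brother pool 3, isolated pool 1, isolated pool 3, unrelated pool 2 or unrelated pool 3, no member passed in either comparison by edgeR, where 0.0128%, 0.00638%, 0.00638%, 0.0383% and 0.0319% of all loci, in that order, were called higher against isolated and 0% against unrelated. At an unadjusted p under 0.05 at least 8 of 9 members, all higher in brother pools, lay in each of these fits. Of all loci, counted here in either direction, 13.1% to 19.3% did against isolated and 3.40% to 6.47% against unrelated. The members had been chosen on these values. Without isolated pool 2 or unrelated pool 1, 2 members passed against isolated, where 0.256% and 0.179% of loci were called higher, and without brother pool 2, 4 did, where 3.78% were. XLOC_011522 kept its call against unrelated when unrelated pool 1 was left out (edgeR adjusted p = 0.0189) or brother pool 1 was (edgeR adjusted p = 0.00971), and lost it when any one of the other 7 pools was (edgeR adjusted p from 0.0745 to 0.177). DESeq2 on all 9 pools called 8 members against isolated and 6 against unrelated, where it called 5.96% and 0.384% of loci higher. The cause of the difference between the tools was not tested.

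Who belongs to the group depended on how the pools were scaled. The rule divides by pool totals, on which the median locus stood at 103% of its isolated mean in brother pool 1 but at 93.7% and 95.8% in brother pools 2 and 3. Scaling library sizes by TMM moved brother pool 1 down by a factor of 1.07 and pools 2 and 3 up, with factors of 0.932 and 0.953. On that scale 13 loci met the rule, among them 5 of the 9. These were the 5 called against isolated in the main fit. XLOC_005509, XLOC_010008, XLOC_016686 and XLOC_009006 left the group because brother pool 1 fell to 1.09, 1.07, 1.03 and 1.005 times the highest other pool. XLOC_005509 also left the window, with an unrelated mean of 0.885 times the isolated mean. The widest gaps on this scale were those of XLOC_001600, XLOC_011522 and XLOC_002420, at 1.32, 1.29 and 1.23 times. In brother pools 1 to 3 XLOC_001600 then stood at 40.4, 38.5 and 38.4 CPM and XLOC_011522 at 49.0, 52.0 and 47.8 CPM. In all 9 members every brother pool still lay above every other pool, a separation they had been chosen for on pool totals. The share of tested loci with it was 1.29% on pool totals and was not counted on this scale.

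**Figure D4:**
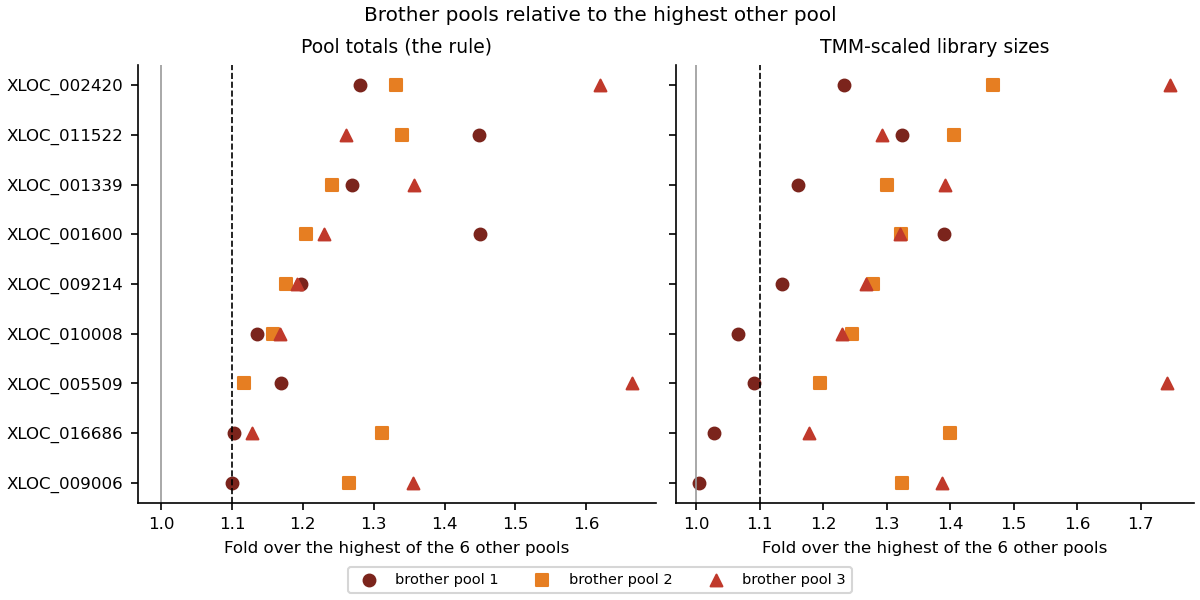
Each brother pool of each locus as a fold over the highest of the 6 other pools (x axis), on pool totals (left) and on TMM-scaled library sizes (right); dashed, the limit of 1.1. On the right brother pool 1 of 4 loci falls under the limit, with XLOC_009006 at 1.005, while brother pools 2 and 3 move outwards.

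The rule was also applied under 18 other settings, which changed the scaling, the technical replicate, a limit or left out a pool. In 7 of them, which loosened a limit or left out a brother pool, no member could be lost. Of the other 11, XLOC_002420, XLOC_011522 and XLOC_001600 met the rule in all 11, XLOC_001339 in 9, XLOC_009006 in 8, XLOC_009214 in 7, XLOC_016686 in 6, XLOC_005509 in 5 and XLOC_010008 in 4. These 11 settings do not all bear on the gap. Leaving out an isolated or unrelated pool cannot narrow it, and loses a member through the limits on the group means. The minimum of 20 CPM removed XLOC_001339, XLOC_010008 and XLOC_016686 by their isolated level alone. Leaving out a brother pool showed which pool held the number of loci down: 93 loci met the rule without brother pool 1, 29 without brother pool 2 and 15 without brother pool 3. At a limit of 1.2 in place of 1.1, which only members can meet, 4 loci met it, and XLOC_001339 joined the 3 that met it throughout. All these settings draw on the values by which the members were chosen, so the numbers are a description.

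**Figure D5:**
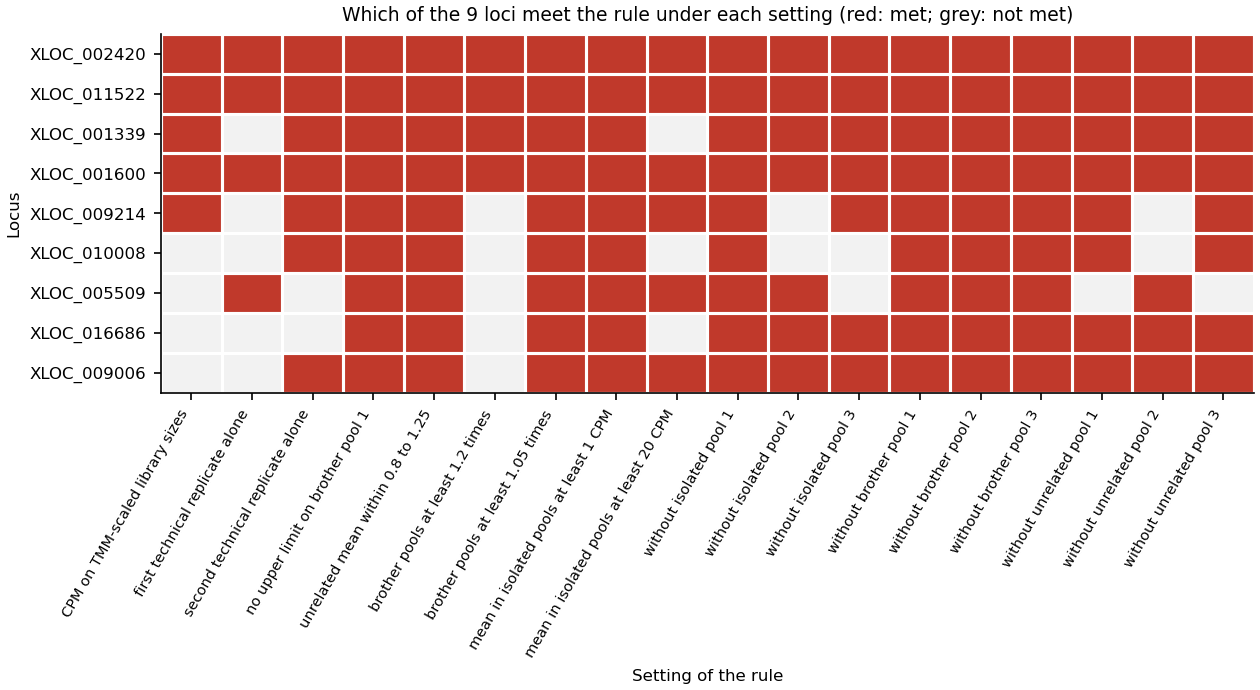
Which of the 9 loci (rows) met the rule under each of 18 other settings (columns); red, met, grey, not met. XLOC_002420, XLOC_011522 and XLOC_001600 are red in every column, and XLOC_010008 is red in 11, of which 7 could not lose a member.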

How the data were processed

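Heads of 3 groups of females were measured by RNA-seq of polyadenylated RNA, made into stranded libraries and read as 125 bp pairs, per the labels' protocols. The authors deposited raw counts, whole numbers not normalised, for 16752 loci in 18 libraries of 22079293 to 67940613 counts. The submitters' processing notes list Trimmomatic 0.36, TopHat, Cufflinks and HTSeq, with no order. Not given in the sources used here are the genome build, the annotation and the strand setting of the counting. How reads shared by overlapping or near-identical loci were handled is also not known, so such loci may not be separable. The 18 columns were matched to the labels by condition, replicate number and the letter of the second technical replicate. Column names with no word on kinship were read as isolated females.

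The labels' protocols give 10 pooled heads per condition and do not say whether this is per replicate or whether pools came from separate families, and p-values thus reflect pool-to-pool spread alone, which may be technical. Technical replicates were summed. CPM use pool totals unless TMM is named. A floor of 3 counts is 0.029 to 0.0481 CPM per pool. Intervals are exact 95% (conditional binomial) and cover counting error only, with no term for spread between pools. PCR copies were not collapsed by molecular identifiers, so the intervals may be too narrow even for counting error.

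Loci were tested with edgeR 4.0.16 (quasi-likelihood F-test, R 4.3.3) on all 9 pools, a coefficient per group, filterByExpr, TMM, and Benjamini-Hochberg adjustment over the 15486 loci kept, with a threshold of 0.05. SE is the size of the log2 fold change over the root of its F value. DESeq2 1.42.0, run on the same filtered loci, RLE and unscaled sizes, no filter, each set of technical replicates, pairs of groups, a replicate block and leaving out each pool were alternatives. The fit was tested on simulated data with changes larger than those of the members, so that test does not bear on differences of their size. All 9 members are named. The naming rule written for this work would have named fewer, so some were named after their values were seen. The members, limits and tests were chosen with earlier results of these data known. Shares of loci whose groups did not overlap are over the 15486 loci tested, a denominator chosen after the values were seen. Tables and figures used Python 3.11.15.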

Additional observations from a re-analysis of the deposited data

How the results depend on the processing

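The number of loci meeting the rule, 9 in the main setting, was 14 with a wider window on the unrelated mean, 4 and 23 with a higher and a lower limit on the brother pools, and 16 with a minimum of 1 CPM. It was 13, 8 and 11 with TMM scaling, the first and the second set of technical replicates, 6 with a minimum of 20 CPM and 9 with no upper limit on brother pool 1. Leaving out single pools gave 9 to 93. Members called against isolated (5 of 9) were 3 with no filter, 8 with DESeq2, 1 with the second set of technical replicates, and 0 when only the 2 groups were fitted, where 0.389%, 5.96%, 0.291% and 0.0197% of all loci were called higher. Against unrelated (1 of 9) they were 0 with unscaled library sizes, 6 with DESeq2 and 0 with only the 2 groups, beside 0%, 0.384% and 0% of all loci. Leaving out single pools gave 0 to 9 and 0 to 8, beside 0.00638% to 7.26% and 0% to 2.49% of all loci. Between unrelated and isolated pools 0 members were called under each of these alternatives, while 6.88% of all loci were called with only the 2 groups, 5.2% without brother pool 1, 4.9% with DESeq2 and 0% under the rest. In a fit with a replicate block 0 members passed in any comparison, beside 0.0387% of all loci higher against isolated and 0% in the others. Same-numbered pools correlated between -0.476 and 0.245 in their deviations from group means. With no values for differently numbered pools beside them, these cannot decide whether pools were paired. The main fit took the pools as unpaired. Over the alternatives the 306 fitted differences of members from isolated or unrelated were log2 0.19 to 0.88, a direction set by the choice of members. Of these, 60 lost a call and 19 gained one. The causes were not tested, beyond the fewer pools or added conditions that an alternative itself brings.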
